A study of Mus musculus with 12 samples.

Results

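Polycomb group genes encode the subunits of Polycomb repressive complexes 1 and 2 (PRC1 and PRC2). The 10 genes described here were Ezh1, Ezh2, Eed, Suz12 and Jarid2 of PRC2 and Rnf2, Bmi1, Cbx2, Cbx7 and Phc1 of PRC1. They were taken as the probe sets whose single gene symbol was one of these names, 10 of 19935 genes with such a probe set. Expression was measured on 12 Affymetrix Mouse Gene arrays of blood stem cells (hematopoietic stem cells, HSCs), which renew themselves and give rise to every blood lineage. They were sorted by flow cytometry, 5000 to 7000 cells per sample, as lineage- Sca-1+ c-kit+ CD48- CD150+, from mice aged 2 to 3 months. The groups were males given 2 µg of estradiol (E2), the main estrogen, males given oil, females given 2 µg of E2 and females given oil. Every mouse received 100 µL of corn oil under the skin, with or without the hormone, and each group was 3 arrays from 3 mice. The labels used here state neither strain, genotype, duration of treatment nor stage of the female cycle.

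PRC2 places methyl groups on a lysine of histone H3, and PRC1 attaches ubiquitin to histone H2A, and genes that carry both marks tend to be held silent. EZH2 and EZH1 are alternative catalytic subunits of PRC2. In blood cells EZH2 is known as the form of dividing cells and EZH1 as the form that is kept in resting and adult stem cells, and BMI1 is known for sustaining HSC self-renewal by repressing the Cdkn2a locus.

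The start regions of Ezh2 and Ezh1 are printed because these paralogues were compared most closely. Both are RefSeq sequence of build GRCm38.p6 on the minus strand, from 100 bases before to 30 bases after the annotated start, 5′ to 3′. Ezh2 lies at chr6:47595001-47595130 and Ezh1 at chr11:101226434-101226563. Capitals mark CCAAT (or its reverse complement ATTGG) and matches to the E2F motif, the binding sequence of the factors that drive S phase genes.
Ezh2: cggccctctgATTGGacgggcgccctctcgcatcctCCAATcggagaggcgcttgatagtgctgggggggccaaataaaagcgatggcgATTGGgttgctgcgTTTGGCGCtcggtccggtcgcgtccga
Ezh1: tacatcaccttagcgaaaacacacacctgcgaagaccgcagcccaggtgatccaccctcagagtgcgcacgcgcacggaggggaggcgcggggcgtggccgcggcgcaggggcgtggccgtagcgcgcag
The E2F motif was searched on both strands as TTTGGCGC, TTTCGCGC, TTTCCCGC or TTTGCCGC, in windows of 300 bases around gene starts. It was found in 2.26% of 32851 windows of all genes, and CCAAT in 37.4%. No match of one motif overlapped the other in these sequences. In the Ezh2 window the E2F match lay at bases 4 to 11 after the start, with 3 CCAAT matches before it. The Ezh1 window held neither. Of 9 members with a window, Suz12 was the other with an E2F match, TTTCCCGC at bases -219 to -212, and 5 held CCAAT. The full palindromic estrogen response element was in 0 of the members' windows and 0.07% of all windows. A match is a run of letters and was not tested for binding.

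The deposited values are intensities on a linear scale, with array medians of 143 to 159. The mean over all arrays had to exceed the median of genes, an intensity of 182, for a gene to be tested, which left 9967 genes and all 10 members. The 6 measured markers of HSCs, among them Slamf1 (CD150), Kit, Procr and Hlf, all passed this filter while Cd48, which the sort selected against, lay at 62.8 to 116, below it. Other cell types' markers were also read above the filter, 4 of 5 progenitor markers (Cd34 at 1474 to 2272) and 6 of 9 myeloid markers (S100a8 at 1561 to 6005). Female E2 replicate 1 stood apart. Its value lay outside the range of the other 11 arrays for 32.0% of genes and for 7 of the 10 members, with Ezh2, Eed, Suz12 and Bmi1 highest there and Ezh1, Jarid2 and Cbx7 lowest. Female E2 replicate 2 lay outside for 29.7% of genes, and the remaining arrays for 7.40% to 20.3%. Results for E2 in females are therefore given with and without replicate 1.

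None of the 10 members passed the test for a change with E2. In limma's model across all genes, 0 of 10 passed an adjusted p of 0.05 in males, where 1.43% of all genes passed, 0 of 10 in females, where 3.56% passed, and 0 of 10 for the effect averaged over the sexes, where 8.90% passed. At an unadjusted p under 0.05, 0 members were found in males (14.7% of all genes), 2 in females (18.6%) and 2 on average (24.6%). The fitted log2 fold changes, E2 over oil, ran from -0.16 to 0.26 in males, from -0.40 to 0.30 in females and from -0.13 to 0.27 on average. The median over the members was 0.02 on average, beside -0.01 over all genes tested. The lowest bound of any member's 95% interval for the averaged effect was -0.33 (Cbx7) and the highest 0.45 (Phc1). In these bulk samples fewer cells of a type and less RNA per cell cannot be told apart.

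**Figure D1:**
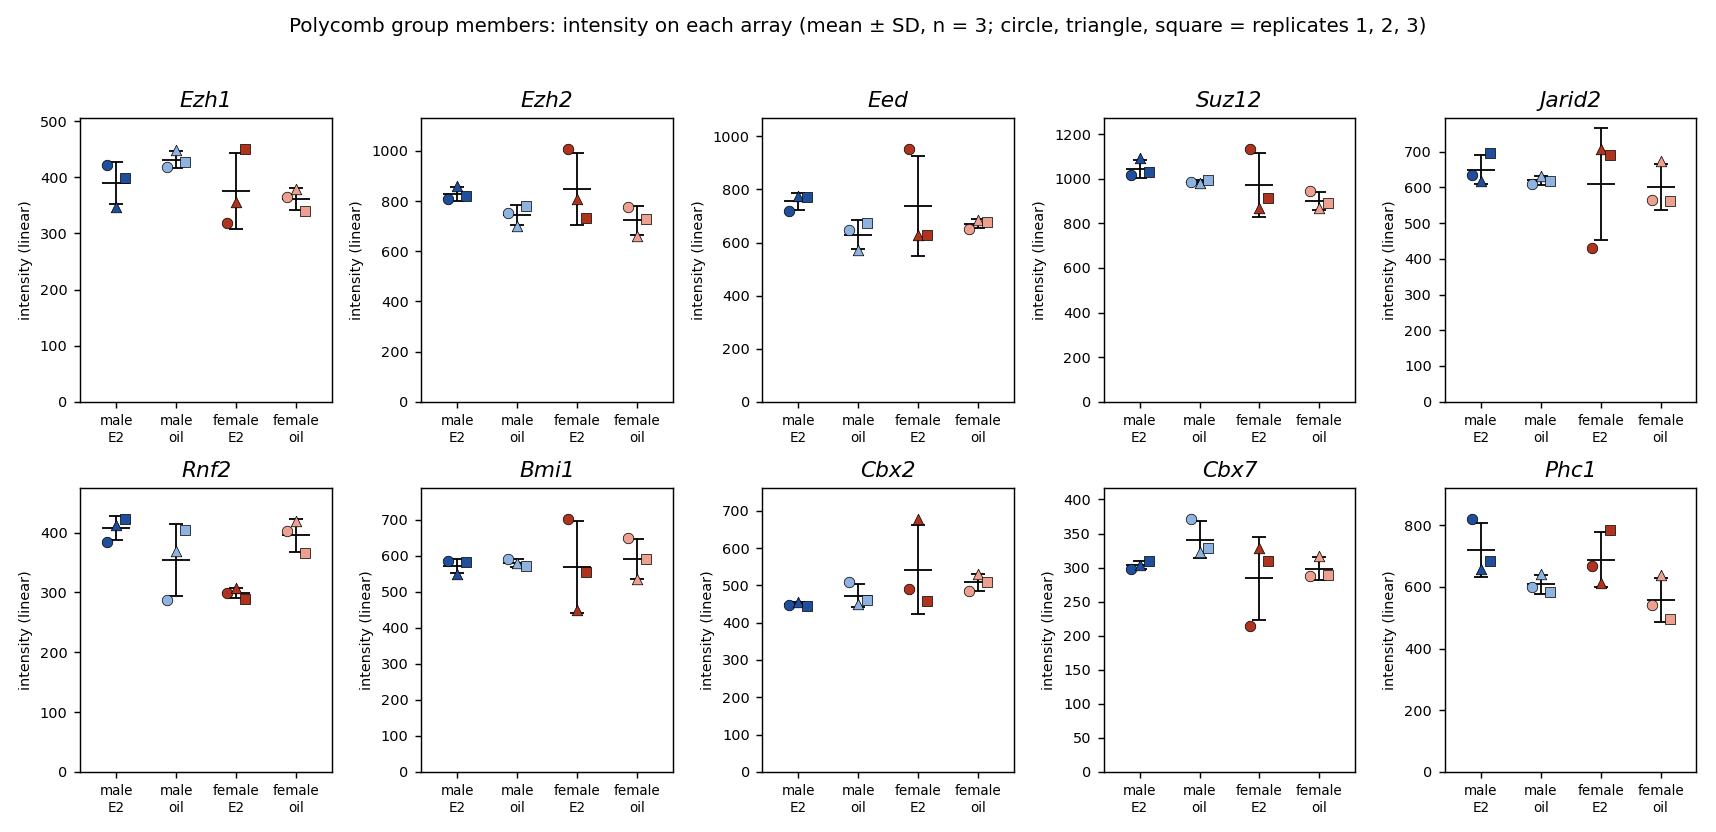
Intensity (linear axis from 0) of each member on each of the 12 arrays, by group. Symbols are arrays, bars the mean ± SD of 3. Female E2 replicate 1 (red circle) is the highest array for Ezh2, Eed, Suz12 and Bmi1 and the lowest for Ezh1, Jarid2 and Cbx7, and the 3 female E2 arrays for Rnf2 lie at 290 to 307, below the female oil arrays.

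Ezh2, the catalytic subunit of dividing cells, had intensities of 807, 860 and 819 on the male E2 arrays, against 753, 699 and 780 on the male oil arrays. The male groups did not overlap, with E2 higher, but the fit did not pass, at a log2 fold change of 0.16 ± 0.11 (SE; limma adjusted p = 0.555). Females had 1009, 807 and 731 under E2, against 778, 662 and 728 under oil. These groups overlapped, and the highest array of all was female E2 replicate 1. The change was 0.22 ± 0.11 in females (adjusted p = 0.312), and 0.09 ± 0.09 without replicate 1 (adjusted p = 0.641). On average it was 0.19 ± 0.08 (adjusted p = 0.154), and the interval of 0.02 to 0.36 corresponds to 1.01-fold to 1.28-fold.

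Ezh1, the catalytic subunit of resting cells, had 422, 348 and 399 on the male E2 arrays, against 418, 449 and 428 on the male oil arrays. Among females it had 319, 356 and 451 under E2, against 365, 379 and 340 under oil. Both pairs of groups overlapped, and the female E2 arrays spanned both the lowest and the highest value of all 12. The log2 fold change was -0.15 ± 0.12 in males (adjusted p = 0.598), 0.04 ± 0.12 in females (adjusted p = 0.892) and -0.05 ± 0.08 on average (adjusted p = 0.746), with an interval of -0.23 to 0.13.

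The paralogues were compared by the log2 difference Ezh2 minus Ezh1 within each array, in which a scaling factor of the array cancels. This difference was 1.09 ± 0.19 on male E2 arrays and 0.78 ± 0.13 on male oil arrays (SD, n = 3). In females it was 1.18 ± 0.48 under E2 and 1.00 ± 0.17 under oil. The 3 male E2 arrays, at 0.93 to 1.30, lay above the male oil arrays, at 0.64 to 0.86. The female E2 arrays, at 0.69 to 1.66, covered the whole range of the female oil arrays, at 0.80 to 1.10. The shift with E2 was 0.24 on average, and an exact 2-sided permutation of treatment within sex gave p = 0.14 over 400 relabellings, where the smallest possible is 0.005. In males alone the shift was 0.31 with an exact p of 0.1, the smallest that 3 arrays against 3 allow, and in females 0.18 with an exact p of 0.7. The averaged shift was 0.12 without female E2 replicate 1 (exact p = 0.37) and 0.36 without female E2 replicate 3 (exact p = 0.005). A shift between the paralogues is thus not separated from the spread of the female E2 arrays.

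**Figure D2:**
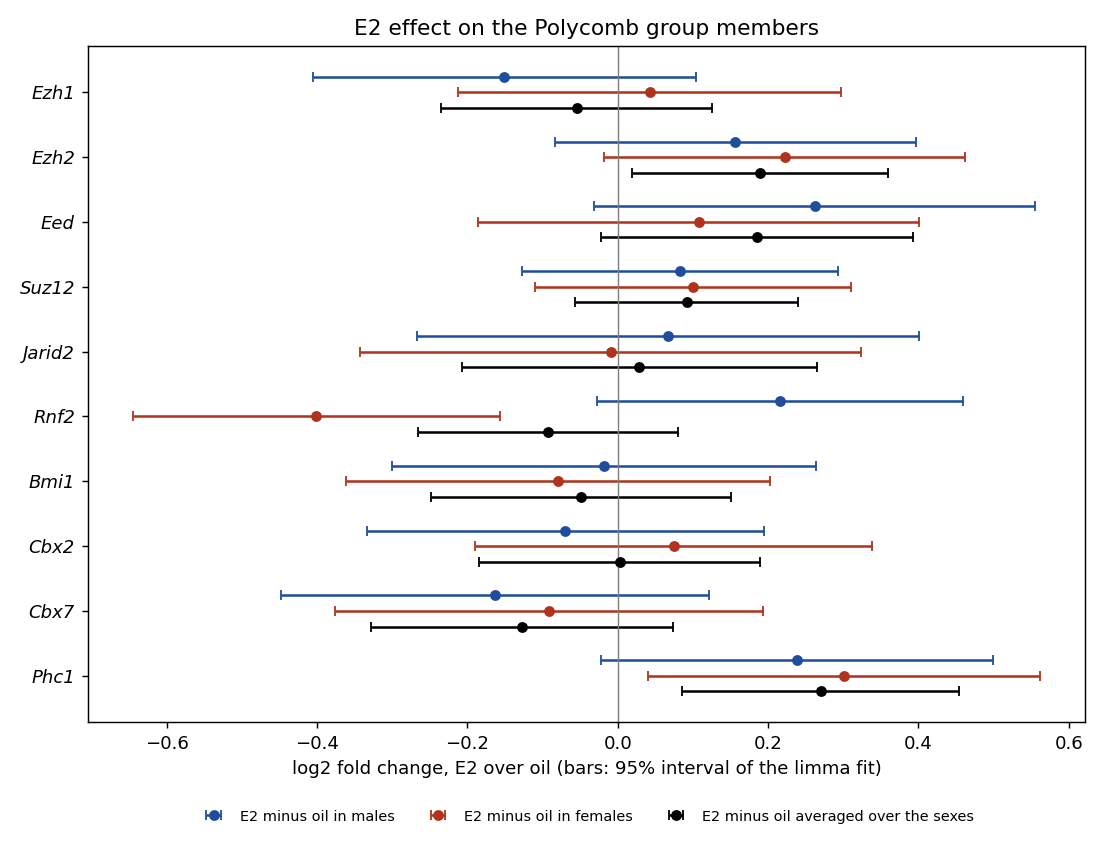
Log2 fold change of E2 over oil (horizontal axis) for each member in males, in females and averaged, with the 95% interval of the limma fit. The averaged intervals of Phc1 and Ezh2 lie above 0 before adjustment over genes, and Rnf2 has a negative value in females, -0.40, and a positive value in males, 0.22.

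Eed and Suz12 encode the noncatalytic core of PRC2, the subunit that reads the methyl mark and the scaffold. Eed had 719, 774 and 771 on the male E2 arrays, against 648, 570 and 672 on the male oil arrays. In females it had 954, 630 and 629 under E2, against 651, 684 and 679 under oil. The male groups did not overlap, and in females 2 E2 arrays lay below the oil arrays and replicate 1 far above. The log2 fold change was 0.26 ± 0.14 in males (adjusted p = 0.393), and in females 0.11 ± 0.14 with all arrays (adjusted p = 0.72) and -0.09 ± 0.09 without replicate 1 (adjusted p = 0.612). A second Eed probe set, matched to a single cDNA, read 66.3 to 97.9 on all arrays, below the filter value, and was not used. It ran the other way in males, at 72.6 to 88.6 under E2 and 89.5 to 97.9 under oil. With the mean of both probe sets the change of Eed was 0.02 in males and 0.09 on average, against 0.26 and 0.19 with the brighter one. Suz12 had 1016 to 1092 on the male E2 arrays and 980 to 996 on the male oil arrays, at 0.08 ± 0.10 (adjusted p = 0.757). Females had 868 to 1136 under E2 and 868 to 947 under oil, at 0.10 ± 0.10 (adjusted p = 0.636). Jarid2, an accessory subunit that recruits PRC2 to its sites, had 618 to 696 on the male E2 arrays and 609 to 633 on the male oil arrays. In females it ran from 430 in replicate 1 to 709 under E2, and from 562 to 675 under oil. Its averaged change was 0.03 ± 0.11 (adjusted p = 0.905).

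Rnf2, also called Ring1b, is the main ubiquitin ligase of PRC1. It had 299, 307 and 290 on the female E2 arrays, against 402, 419 and 365 on the female oil arrays. In males it had 385, 413 and 423 under E2, against 287, 369 and 405 under oil. The female groups did not overlap, with E2 lower, whereas the male groups overlapped. The log2 fold change was -0.40 ± 0.11 in females and did not pass (adjusted p = 0.0718, the lowest of the 10 members there), and it was 0.22 ± 0.11 in males (adjusted p = 0.398). It was still -0.40 without female E2 replicate 1 (adjusted p = 0.0899). Leaving out male oil replicate 1, the lowest male oil array at 287, took it past the threshold (adjusted p = 0.0279), since all groups share 1 estimate of the spread. The female response minus the male response was -0.62 ± 0.16 (unadjusted p = 0.0019), and it did not pass over all genes (limma adjusted p = 0.654), where 0.0100% of genes passed. At an unadjusted p under 0.05 it was 1 of 10 members, beside 5.37% of all genes. Rnf2 was also the 1 member whose E2 arrays lay all on one side of the oil mean in females (below) and all on the other in males (above). Of all genes 4.31% had E2 arrays on opposite sides in the sexes, counted in either orientation. The male side of this pattern rests on male oil replicate 1, at 287. Without that array the male change was 0.07, and male E2 replicate 1, at 385, no longer lay above the male oil mean.

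Bmi1, the partner that activates the ligase, had 550 to 586 on the male E2 arrays and 570 to 590 on the male oil arrays. Among females it had 448 to 703 under E2 and 537 to 648 under oil. Its averaged change was -0.05 ± 0.09 (adjusted p = 0.799), and the interval of -0.25 to 0.15 corresponds to 0.842-fold to 1.11-fold. The female E2 arrays spanned the lowest and the highest Bmi1 value of all 12.

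Cbx2 and Cbx7 are alternative chromobox subunits that bind the methyl mark, and in mouse blood CBX7 is known to favour self-renewal. Cbx7 had 298, 304 and 309 on the male E2 arrays, against 372, 322 and 329 on the male oil arrays. In females it had 214, 328 and 310 under E2, against 287, 318 and 290 under oil. The male E2 arrays lay below the male oil arrays, while the female groups overlapped. The change was -0.16 ± 0.13 in males (adjusted p = 0.613) and -0.09 ± 0.13 in females (adjusted p = 0.763). Cbx2 had 444 to 456 on the male E2 arrays and 449 to 508 on the male oil arrays. Females had 459 to 679 under E2 and 484 to 531 under oil, and its averaged change was 0.00 ± 0.09 (adjusted p = 0.99).

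Phc1, a polyhomeotic subunit that lets PRC1 cluster on chromatin, had the lowest adjusted p of the members for the averaged effect. It had 822, 657 and 684 on the male E2 arrays, against 601, 641 and 583 on the male oil arrays. Among females it had 668, 612 and 785 under E2, against 543, 637 and 496 under oil. The male groups did not overlap, and in females 1 oil array lay above the lowest E2 array. The log2 fold change was 0.24 ± 0.12 in males (adjusted p = 0.383), 0.30 ± 0.12 in females (adjusted p = 0.196) and 0.27 ± 0.09 on average (adjusted p = 0.0674), or 1.21-fold. The averaged call passed without female E2 replicate 2 (adjusted p = 0.0435) and not with all arrays.

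Without female E2 replicate 1, the female log2 fold changes of members not yet given that way were 0.15 for Ezh1, -0.02 for Suz12, 0.22 for Jarid2, -0.24 for Bmi1, 0.14 for Cbx2, 0.10 for Cbx7 and 0.32 for Phc1. The sign turned for Suz12, Jarid2 and Cbx7, as it did for Eed. In that fit 0 of the 10 members passed in females, where 134 of all 9967 genes rose and 415 fell.

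Counted by overlap alone, 5 of the 10 members separated the male E2 from the male oil arrays, Ezh2, Eed, Suz12 and Phc1 higher and Cbx7 lower. Of all genes 26.5% did so, 13.6% higher and 13.0% lower. In females 1 of 10 did, Rnf2, lower, where 20.1% of all genes did, 6.95% higher and 13.1% lower.

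Between the sexes, 0 of 10 members passed for female minus male under oil, where 0.0401% of all genes passed, and 0 of 10 under E2, where 0.0100% passed. At an unadjusted p under 0.05 there was 1 member under oil (4.99% of all genes) and 1 under E2 (9.04%). The member under oil was Ezh1, with 340 to 379 in females and 418 to 449 in males, groups that did not overlap, at a log2 difference of -0.26 ± 0.12 (limma adjusted p = 0.986). The member under E2 was Rnf2, at -0.44 ± 0.11 (adjusted p = 0.42), with 290 to 307 in females and 385 to 423 in males. Under oil 3 of 10 members did not overlap between the sexes, Ezh1, Suz12 and Cbx7, all lower in females, beside 12.9% of all genes (5.65% higher, 7.29% lower). Under E2 these were Rnf2, lower in females, and Cbx2, higher, beside 12.8% of all genes (4.10% higher, 8.72% lower).

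Levels of Ezh2 followed those of genes of cell division from array to array. Of 30 proliferation genes above the filter, 7 rose and 0 fell for the averaged effect (3.12% of all genes rose and 5.78% fell), and their median log2 fold change was 0.32. In males 0 of 30 rose (0.572% of all genes) and in females 1 of 30, Tk1 (0.813%), with medians of 0.36 and 0.27, and with all arrays the 30 fitted values were above 0 in each sex. Without female E2 replicate 1, 9 rose on average, 6 in males and 0 in females, and the median was 0.21 on average and 0.08 in females. Of all 9967 genes 319 rose on average in that fit, 161 in males and 134 in females. With all arrays these counts were 311, 57 and 81. Uhrf1 rose by 0.58 ± 0.12 (adjusted p = 0.00911), E2f1 by 0.36 ± 0.10 (adjusted p = 0.0343) and Cdk1 by 0.31 ± 0.07 (adjusted p = 0.0152), and the other genes that rose were Cdc6, Mcm5, Tk1 and Hells. They act in origin licensing, nucleotide supply, chromatin remodelling, entry into mitosis, S phase transcription and the upkeep of DNA methylation. Mki67 at 0.18 and Top2a at 0.26 did not pass, and E2f2 lay below the filter. The mean of the 30 genes was 0.34 to 0.41 above the male oil mean on the male E2 arrays. On the female E2 arrays it was 0.68 above the female oil mean in replicate 1, and 0.13 and 0.07 in replicates 2 and 3, within the range of the female oil arrays.

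Within groups, the deviation of Ezh2 from its group mean correlated with that of the proliferation mean at r = 0.97 over 12 arrays (exact permutation of arrays within groups, p = 0.00309; adjusted p = 0.00617 over Ezh2 and Ezh1). Without female E2 replicate 1, r was 0.91 (exact permutation p = 0.00926). Over all 12 arrays, ignoring groups, Pearson's r was 0.95 (permutation p = 1e-05, the smallest 100000 draws can give) and Spearman's rho 0.92 (permutation p = 6e-05). Without the 2 arrays farthest from the median, female E2 replicate 1 and male oil replicate 2, r was 0.89. It was 0.96 over the 6 E2 arrays and 0.84 over the 6 oil arrays. Ezh2 and the list were read on the same arrays, so they share array scaling, and r was 0.94 after quantile normalization and 0.97 after centring each array on its median. The share of all genes that correlate as highly with the list is not given here.

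For Ezh1 the same correlation within groups was -0.69 (exact permutation p = 0.18, adjusted p = 0.18). Without female E2 replicate 1 it was -0.39 (exact permutation p = 0.1065). Pooled over 12 arrays it was -0.54 (Pearson; permutation p = 0.0676) with a Spearman's rho of -0.42 (permutation p = 0.177), and -0.08 without the same 2 arrays. Within groups it was -0.75 after quantile normalization (exact permutation, adjusted p = 0.0579) and -0.43 with each array centred on its median (adjusted p = 0.524). The relation of Ezh1 therefore depends on those 2 arrays and on the scaling. Of the other members, described with no test, the correlation within groups was 0.91 for Suz12, 0.87 for Eed, 0.80 for Bmi1, -0.81 for Cbx7 and -0.94 for Jarid2. Without female E2 replicate 1 these 5 were nearer to 0, at 0.59 for Suz12, 0.34 for Eed, 0.35 for Bmi1, -0.06 for Cbx7 and -0.70 for Jarid2. For the remaining 3 it was -0.34 for Phc1, -0.10 for Rnf2 and -0.24 for Cbx2. Without that array Phc1 and Rnf2 were farther from 0, at -0.51 and -0.21, and Cbx2 turned sign, at 0.10. The median averaged change was 0.02 over the members and 0.32 over the proliferation list, and 0.03 and 0.21 without female E2 replicate 1. The difference between the lists was not tested.

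**Figure D3:**
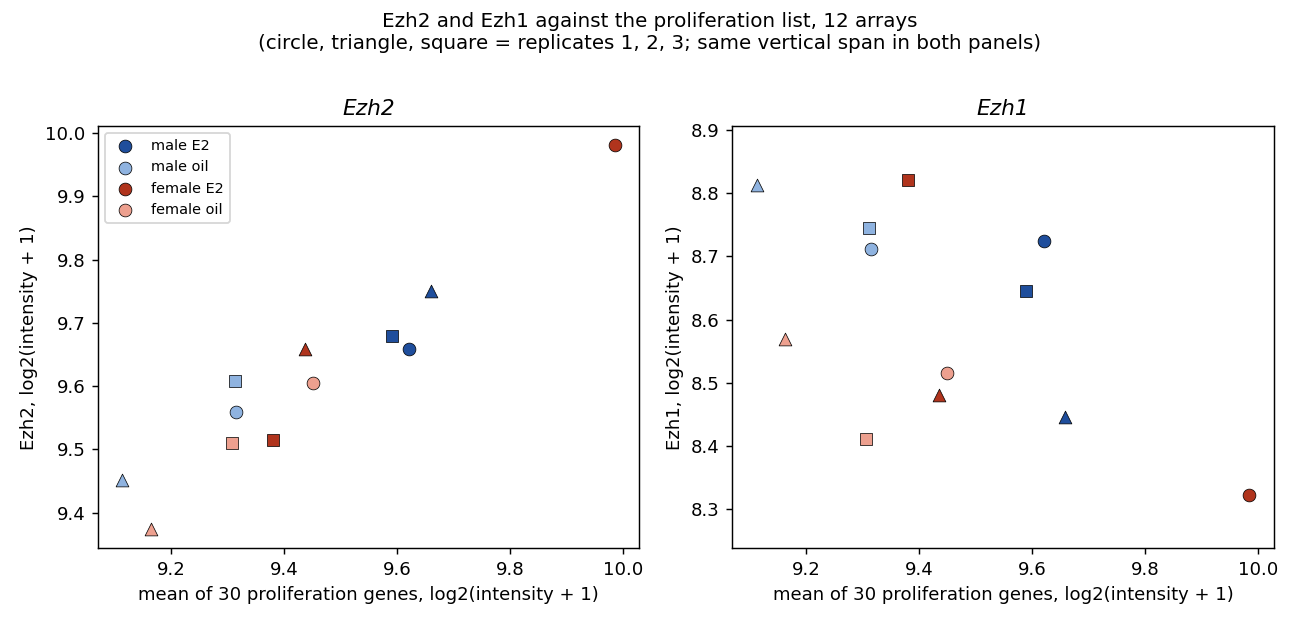
Level of Ezh2 (left) and Ezh1 (right), as log2 of intensity plus 1, against the mean of 30 proliferation genes on the same scale, with 1 point per array. Ezh2 rises with the list across the 12 arrays (r = 0.95), with female E2 replicate 1 at the top right, while Ezh1 scatters (r = -0.54).

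The genes whose levels ran most like those of Ezh2 over 12 arrays were Psmc5 (r = 0.97), Mcm10 (0.96), Tyms (0.96), Ola1 (0.96) and Fignl1 (0.96). Those most like Ezh1 were Tapt1 (0.93), Hrh2 (0.91), Plag1 (0.91), Zbtb22 (0.91) and Mllt3 (0.90). The lowest of these correlations without female E2 replicate 1 was 0.93 for Ezh2 and 0.87 for Ezh1. Among the members, Ezh2 and Eed correlated at 0.82 and Ezh2 and Suz12 at 0.77, and without that array at 0.59 and 0.64.

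Other Polycomb genes were taken from a list of 35 subunits and opposing enzymes, of which 33 had a probe set of their own and 30 passed the filter. For the averaged effect 1 of 30 rose and 4 fell in limma's model, 5 in all, beside 8.90% of all genes, and the list's median was -0.04. In males 1 of 30 passed, lower (0.863% of all genes fell), and in females 0 of 30 (2.75% fell). Without female E2 replicate 1 the count in females was 4, all lower (Kdm6b, Pcgf3, Pcgf5 and Phc3). Of all 9967 genes 415 fell in that fit, against 274 with all arrays. Pcgf2 (Mel18), a paralogue of Bmi1, had 201 to 261 on the male E2 arrays and 366 to 388 on the male oil arrays. In females it had 256 to 311 under E2 and 258 to 331 under oil. The groups were apart in males and overlapped in females. It fell by 0.40 ± 0.08 on average (adjusted p = 0.011) and by 0.69 ± 0.12 in males (adjusted p = 0.0102), while the value in females was -0.11 ± 0.12 (adjusted p = 0.669). The sexes' responses differed by 0.58 ± 0.17 and this did not pass (adjusted p = 0.754).

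Rbbp7, a histone-binding subunit of PRC2 and other complexes, rose by 0.25 ± 0.06 (adjusted p = 0.0288), with 1871 to 2277 on the 6 E2 arrays and 1619 to 1897 on the 6 oil arrays. The E2 and oil arrays did not overlap within either sex, where 13.6% of all genes were higher without overlap in males and 6.95% in females. Of variant PRC1, Pcgf5, a scaffold of the complex, fell by 0.28 ± 0.07 (adjusted p = 0.0342), and Bcor, a corepressor, fell by 0.22 ± 0.06 (adjusted p = 0.028). Both had all E2 arrays below all oil arrays in each sex, as 13.0% of all genes did in males and 13.1% in females. The share of genes that did so in both sexes is not given here. Kdm6b, which removes the PRC2 mark, fell by 0.31 ± 0.09 (adjusted p = 0.0496), and its male arrays overlapped. Among those that did not pass, the smallest p in each complex belonged to Phc2 (-0.21) and Phc3 (-0.15), Mga (-0.17) and Kdm2b (-0.13), Bap1 (-0.22) and Hcfc1 (0.15), Phf1 (-0.11) and Rbbp4 (0.13), and Kdm6a (-0.10).

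This count of 5 moved when an array was left out. Leaving out male E2 replicate 1, 2 or 3 gave 2, 1 or 3 calls. Leaving out male oil replicate 2 or 3 gave 1 call each time. For female E2 replicate 1 or 2 the count was 8 or 3, and for female oil replicate 2 or 3 it was 1 or 2. Without female E2 replicate 1, 319 of all 9967 genes rose and 694 fell, against 311 and 576 with all arrays. Pcgf2 passed under every alternative run. With 1 array left out, the limma adjusted p reached 0.081 for Rbbp7, 0.092 for Pcgf5, 0.084 for Bcor and 0.124 for Kdm6b. Markers of HSCs and of other cell types moved in the same comparison, where 3.12% of all genes rose and 5.78% fell. Of 6 megakaryocyte markers tested 1 rose and 4 fell, and the summed intensity of the 7 measured was 2828 to 3142 in male E2 and 3579 to 3981 in male oil samples, then 2147 to 3025 in female E2 and 3579 to 3907 in female oil samples. Of 4 progenitor markers 3 fell, with sums over 5 of 2147 to 2423 in male E2 and 2448 to 3636 in male oil samples, then 2211 to 2913 in female E2 and 2775 to 5417 in female oil samples. Of 6 HSC markers 2 fell, Kit and Procr, with sums of 7699 to 8115 in male E2 and 8642 to 8692 in male oil samples, then 6931 to 8039 in female E2 and 7833 to 8510 in female oil samples. Of 6 myeloid markers Itgam rose and Prtn3 fell. Itgam had means of 1046 in male E2 and 113 in male oil samples, then 1204 in female E2 and 183 in female oil samples. Itgam was the 1 of these 6 with a fitted value above 0, and their median was -0.32. Sums over 9 myeloid markers overlapped, at 8961 to 13308 in male E2 and 8300 to 14228 in male oil samples. In females they were 6303 to 14133 under E2 and 9623 to 16773 under oil. Col1a2, of 2 stroma markers, rose. Cd79b, the 1 B cell marker tested, and Nkg7, of 3 T and NK cell markers, fell. No marker was listed at 0. Their part in these results was not tested.

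**Figure D4:**
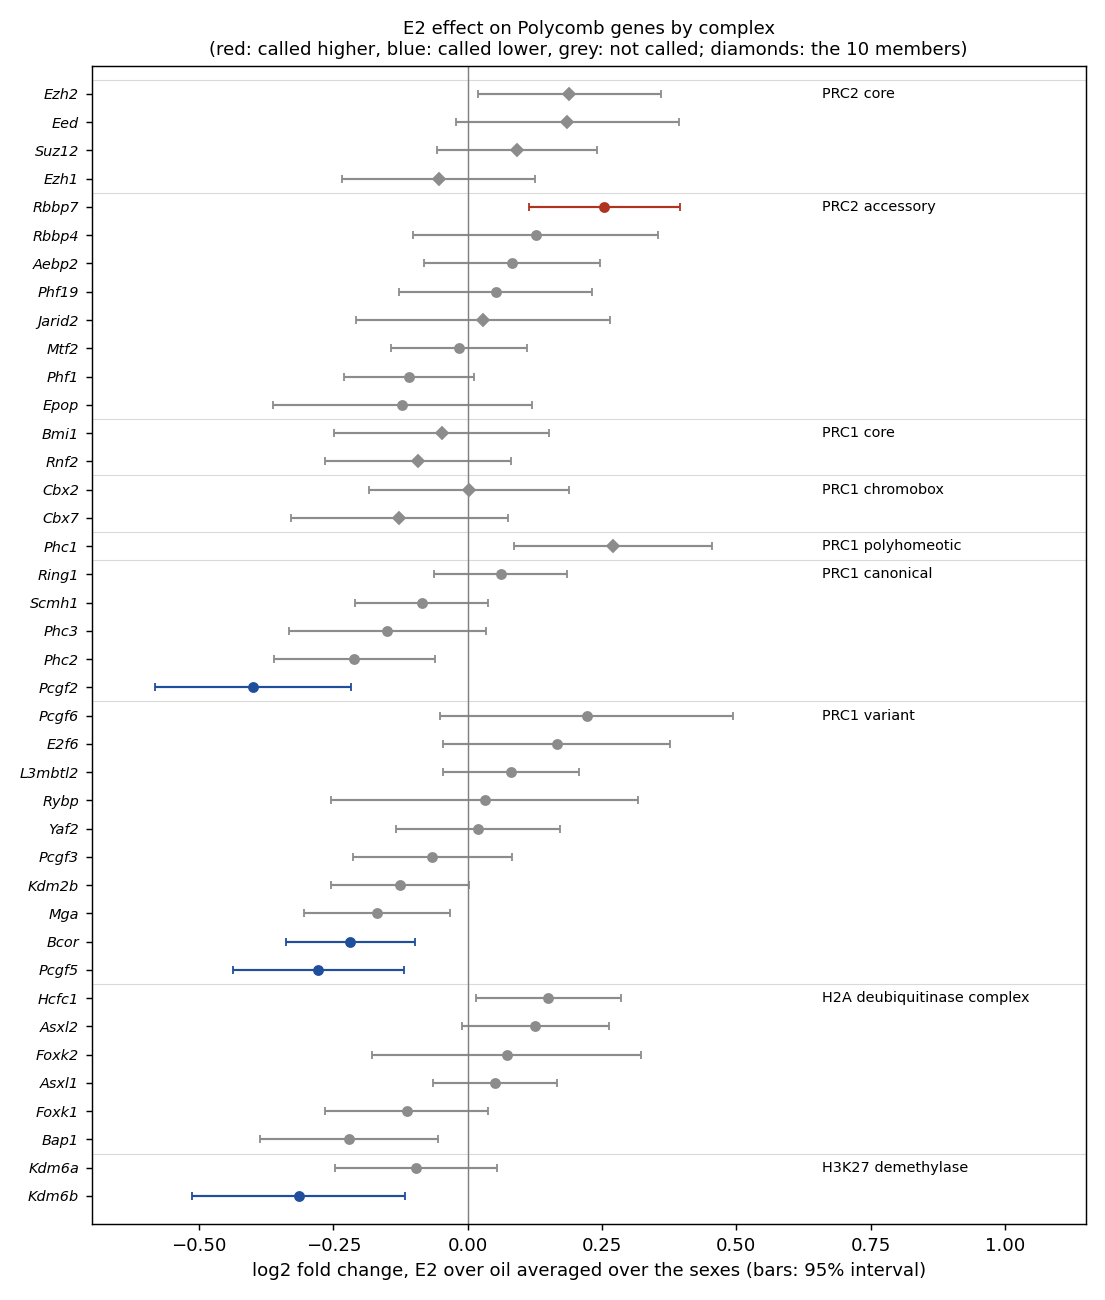
Averaged log2 fold change of E2 over oil (horizontal axis) for the 10 members (diamonds) and 30 other Polycomb genes (circles), grouped by complex, with 95% intervals. Rbbp7 is called higher (red), Pcgf2, Pcgf5, Bcor and Kdm6b lower (blue), and the members are all grey.

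Known targets of Polycomb repression lay below the filter or did not pass the test. Of 11 listed, 10 had a probe set of their own and 3 passed the filter, and 0 of those 3 were called in limma's fit (0 at an unadjusted p under 0.05). Cdkn2a, the p16 and p19 locus that BMI1 represses, had 93.6 to 125 on the E2 arrays and 84.4 to 106 on the oil arrays, below the filter value of 182 throughout. Its neighbour Cdkn2b passed the filter at an averaged change of -0.09 ± 0.09 (adjusted p = 0.559). The CDK inhibitor gene Cdkn1c was at -0.08 ± 0.07 (adjusted p = 0.52) and Hoxa9 at 0.01 ± 0.07 (adjusted p = 0.937). The B cell factors Ebf1 and Pax5, which BMI1 holds silent in mouse HSCs, had 34.8 to 47.4 and 81.2 to 108 over all arrays, and Lin28b, Igf2, Gata6 and Pax6 also lay below the filter.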

How the data were processed

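The deposited values are linear probe set intensities for 35474 probe sets on 12 arrays, taken as the authors deposited them, with background correction, summarisation, normalization and genome build not given in the sources used here. Per the labels, biotinylated cDNA was made with NuGEN kits. Gene symbols came from the platform annotation, and 21780 probe sets had 1 symbol, 1605 several and 12089 none. Each gene was read from its brightest probe set on average, which bears on Eed, the member with 2.

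Values were taken as log2(intensity + 1). All 12 arrays entered 1 limma 3.58.1 fit in R 4.3.3, with a mean for each group (8 residual and 5.38 prior degrees of freedom), with Benjamini-Hochberg adjustment over 9967 genes and calls at an adjusted p under 0.05. Intervals are limma's moderated 95% intervals. Members and lists were chosen with earlier results of these data known. All members were named. Of the other Polycomb genes, those called and the 2 with the smallest p per complex were named, and of the proliferation list Mki67, Top2a, Cdk1, Uhrf1, E2f1 and E2f2; the other called members of that list were added after their values were seen. The markers were lists for HSCs, megakaryocytes, progenitors, myeloid, erythroid, B, T and NK cells and stroma. Over the averaged effect 2 of 6 HSC markers fell (Kit and Procr), 1 of 6 myeloid markers rose and 1 fell, 1 of 1 B cell and 1 of 3 T and NK cell markers fell, 1 of 2 stroma markers rose, and 0 of 1 erythroid markers changed. Of these steps only the averaged limma comparison was tested on simulated data, in which each gene was drawn independently. Figures used Python 3.11.15 with matplotlib 3.10.9.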

Additional observations from a re-analysis of the deposited data

Results flagged for a closer look

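Rnf2 was singled out because all 3 female E2 arrays lay below the mean of the female oil arrays and all 3 male E2 arrays above that of the male oil arrays. The female response minus the male response was -0.62 on the log2 scale, with a 95% interval of -0.96 to -0.27, and limma's test of this difference did not pass over all genes (adjusted p = 0.654; unadjusted p = 0.0019). Of all genes tested 4.31% had E2 arrays on opposite sides of the oil mean in the sexes, counted in either orientation. The male side rests on male oil replicate 1, at 287, where replicates 2 and 3 read 369 and 405. Without replicate 1 the male change was 0.07, against 0.22, and the difference between the sexes was -0.47. The cause was not tested. Groups of 3 arrays are too small for a test of outlying samples.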

How the results depend on the processing

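The number of members called stayed at 0 in every E2 and sex comparison under each change of scaling, offset, filter, probe set rule, variance model, array weights, samples fitted and replicate block. With 1 array left out it ran from 0 to 1 in females (Rnf2, without male oil replicate 1) and from 0 to 1 for the average (Phc1, without female E2 replicate 2). The number of other Polycomb genes called was 5, and it was 2 with arrays centred on their medians, 1 with no filter, 3 with the replicate block, and 1 to 8 with 1 array left out. The shift of Ezh2 minus Ezh1 ran from 0.12 to 0.36 with 1 array left out. Signs near 0 turned. Jarid2 in females was 0.015 after quantile normalization and 0.037 with array weights, and with arrays centred Bmi1 in males was 0.013, Ezh1 in females -0.013 and Cbx2 on average -0.0093. With 1 array left out, Bmi1 in males ran from -0.036 to 0.0097. In females, Ezh1 ran from -0.097 to 0.152, Eed from -0.092 to 0.208, Suz12 from -0.016 to 0.178, Jarid2 from -0.136 to 0.224, Bmi1 from -0.244 to 0.079, Cbx2 from -0.098 to 0.184 and Cbx7 from -0.207 to 0.099. On average, Ezh1 ran from -0.124 to 0.00023, Jarid2 from -0.035 to 0.145, Bmi1 from -0.131 to 0.030 and Cbx2 from -0.084 to 0.057. The cause was not tested. The labels do not state what a shared replicate number means. Deviations of same-numbered E2 and oil arrays correlated at -0.18 to 0.20, and 5 of 12 arrays correlated best with their own number. These few values cannot show whether same-numbered arrays shared anything else, which was not tested. The block changed no call of a member. With pairs as the block, the shift of Ezh2 minus Ezh1 had an exact p of 0.188. All genes called numbered 143 in males (80 to 409 over alternatives, 53 to 328 with 1 array left out), 355 in females (67 to 419, and 122 to 549) and 887 on average (568 to 1002, and 481 to 1147). Centring moved the share of higher calls in females to 11.2%, against 22.8%, and the median female response minus male response to -0.13, against -0.04. Genes with a mean intensity under 182 were not tested, and 3 arrays per group limit the precision to the printed intervals.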
